A study of Mus musculus with 7 samples.

Results

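Argonaute crosslinks were described for 8 genes that set photoreceptor fate or identity, Prdm1, Casz1, Mef2d, Crx, Otx2, Nrl, Thrb and Rxrg. Their positions were those of the deposited crosslink table that lay on the same strand as a gene of the list in GENCODE release M21 (mm10), and they numbered 42 of the 14054 positions in the table. The material was retina of CD-1 mice taken at postnatal day 0 and kept as explants for 24 h with 0.1 mM 4-thiouridine and 20% horse serum, with 6 retinas pooled for each library. PAR-CLIP places 4-thiouridine in RNA, joins it to a bound protein with ultraviolet light at 365 nm, and recovers the RNA joined to that protein by immunoprecipitation. The Argonaute group held 5 libraries, made with the antibody 2A8 against the protein that carries microRNAs, and the control group held 2, made with an isotype control IgG. The table pools the Argonaute libraries, and its score counts how many of the 5 held a position, from 2 to 5, without saying which. Values of single libraries and of the IgG libraries were not analysed here, so nothing was tested against replicate spread, and read depth is unknown. Every listed position was seen in at least 2 libraries, which favours abundant RNAs; fewer cells of a type and less RNA per cell cannot be told apart, and lack of a position does not show a lack of binding.

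Photoreceptors, the rods and cones, arise from retinal progenitors through a chain of transcription factors, and rods are still being born at the age sampled. Otx2 and Crx are related homeobox activators, Otx2 being needed for photoreceptor fate and acting upstream of Crx. Prdm1 (also called Blimp1) is a zinc finger repressor that keeps Otx2-positive cells from becoming bipolar cells. Nrl directs precursors to the rod fate, while Thrb and Rxrg are nuclear receptors that pattern cone opsins. Mef2d acts with Crx at photoreceptor enhancers, and Casz1 is a zinc finger factor that acts in mouse retinal progenitors and in rods. A microRNA guides Argonaute through its seed, and the RNA base crosslinked to Argonaute tends to lie just before the stretch that pairs with the seed.

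The mature microRNAs whose matches carry the results below are shown 5′ to 3′ from RefSeq (GRCm38.p6), with the seed, bases 2 to 8, in capitals. They are shown because each has a match of at least 6 bases in a target window printed after them. Pairing itself was not measured. The seeds of miR-96 and miR-182 differ at 1 base and so share a 6-base match, and those of miR-216a and miR-216b likewise share GAGATT.
mmu-miR-26a-5p: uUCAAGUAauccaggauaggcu
mmu-miR-135a-5p: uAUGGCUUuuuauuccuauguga
mmu-miR-125b-5p: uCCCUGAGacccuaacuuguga
mmu-let-7a-5p: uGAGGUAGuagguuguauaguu
mmu-miR-9-5p: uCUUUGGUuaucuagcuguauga
mmu-miR-96-5p: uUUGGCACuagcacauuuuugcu
mmu-miR-182-5p: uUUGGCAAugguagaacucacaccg
mmu-miR-216a-5p: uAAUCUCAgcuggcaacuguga
mmu-miR-216b-5p: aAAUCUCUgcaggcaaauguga

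Target windows of 30 nt follow, read from spliced GENCODE transcripts, with the crosslinked base always the 13th letter. Capitals mark the bases that match a microRNA at or just after the crosslink or, where none does, before it. A single capital T marks the crosslinked base where no family searched had a 7-base match near it. They are the member positions found in 4 or 5 libraries, then those at which a match of let-7, miR-9, miR-96, miR-182 or miR-216a is described, each named by gene and by its distance in nt from the stop codon or, in coding sequence (CDS), by its coordinate.
Casz1 nt 958, 5 libraries: gattccaacttttaACTTGAAttttgtaga
Casz1 nt 1961, 5 libraries: ctgacccaccaaTgctctttttaatgtttt
Casz1 nt 2152, 5 libraries: cgcgcgctctgatTACTTGAAtctggtctc
Casz1 nt 1874, 4 libraries: acattaggactatAAGCCATtgctagctca
Prdm1 nt 170, 5 libraries: atgttaccaaaatCTCAGGGcataaatgag
Prdm1 nt 502, 5 libraries: tttgtagataatTtctgcacatctgtttaa
Prdm1 nt 302, 4 libraries: tatttgtgtggaTatgtttgcatagcgcct
Prdm1 nt 2437, 4 libraries: actggtttacatTgttatttatgtgcaaat
Prdm1 nt 2454, 4 libraries: tttatgtgcaaaTtgtcaaaatgtaaatta
Prdm1 nt 1284, 3 libraries: agtgttcaacaatTACCTCAttgagtgtat
Prdm1 nt 2128, 2 libraries: ttaattgtaggttaACCAAAGcatgacctg
Prdm1 CDS 44441094, 2 libraries: gagtgcaatgtctGTGCCAAgacgttcggt
Prdm1 CDS 44439716, 2 libraries: acccaCTACCTCtggtgcctgtaaaggtca
Prdm1 CDS 44442114, 2 libraries: aaaaatgaactctacCCAAAGAgtgtcccc
Mef2d nt 1239, 3 libraries: aTGAGATTctatttttgtcaaagtatattg
Mef2d nt 2732, 2 libraries: cagaactgggtatTTGCCAAAgtagcctct
Otx2 CDS 48661378, 2 libraries: tggaagctctgtTTGCCAAgacccggtacc

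Of the 8 genes, 6 had at least 1 position, and 21.6% of the 22028 annotated protein-coding genes did. The 8 were chosen with earlier results of these data known, and the 22028 were not limited to genes expressed in retina. An excess was therefore not tested. Prdm1 had 22 positions, Casz1 had 8, Otx2 had 6, and Crx, Mef2d and Thrb had 2 each. Nrl and Rxrg had no position. By class, 27 of the 42 positions lay in 3′ UTRs (64.3%, exact 95% binomial interval 48 to 78.4), and over all positions in the table the share was 52.1%. Coding sequence held 9 (21.4%, against 20.9% of all positions) and introns held 6 (14.3%, against 17.9%). None lay in a 5′ UTR or a noncoding exon. The interval of the 3′ UTR share covers the share of all positions. These intervals cover counting error only, and positions of 1 gene share its RNA and are not independent.

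**Figure D1:**
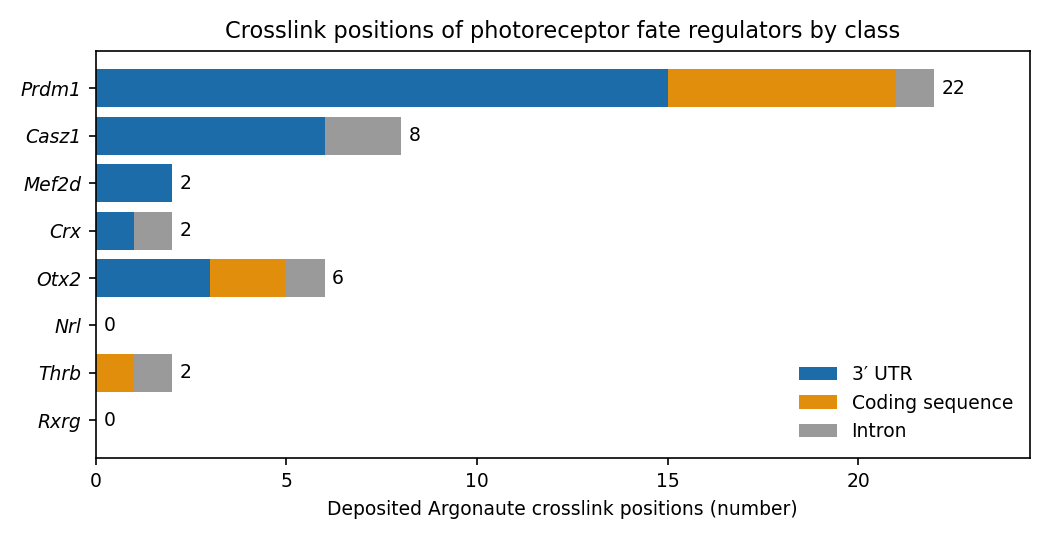
Number of deposited Argonaute crosslink positions in each of the 8 genes, with bars divided into 3′ UTR, coding sequence and intron and the total at the end of each bar. Prdm1 had 22 positions, and Nrl and Rxrg had none.

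Recurrence over the libraries differed among the genes. Of the 42 positions, 28 were in 2 libraries, 5 in 3, 4 in 4 and 5 in all 5. In 3 or more libraries there were 14 (33.3%, 19.6 to 49.5), against 25.6% of all positions in the table. All 14 belonged to Prdm1 (8), Casz1 (5) and Mef2d (1), and every position of Otx2, Crx and Thrb was in 2 libraries. Of the 14, 13 lay in 3′ UTRs and 1 in an intron of Casz1. The share in all 5 libraries was 11.9% (5 of 42, 3.98 to 25.6), against 3.47% of all positions, and the 5 positions came from Casz1 (3) and Prdm1 (2). These lay in 3′ UTRs, whereas the 3.47% covers positions of every class, and no such share was computed for 3′ UTRs alone. Positions of 1 gene are not independent, so this interval too covers counting error only. Within 3′ UTRs alone, 13 of 27 member positions were in 3 or more libraries (48.1%, 28.7 to 68.1), against 32.9% of all 3′ UTR positions. In coding sequence it was 0 of 9, a count that allows up to 33.6%, against 21.7% of all coding positions. Most intervals are wide at these counts, and the difference between genes was not tested.

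**Figure D2:**
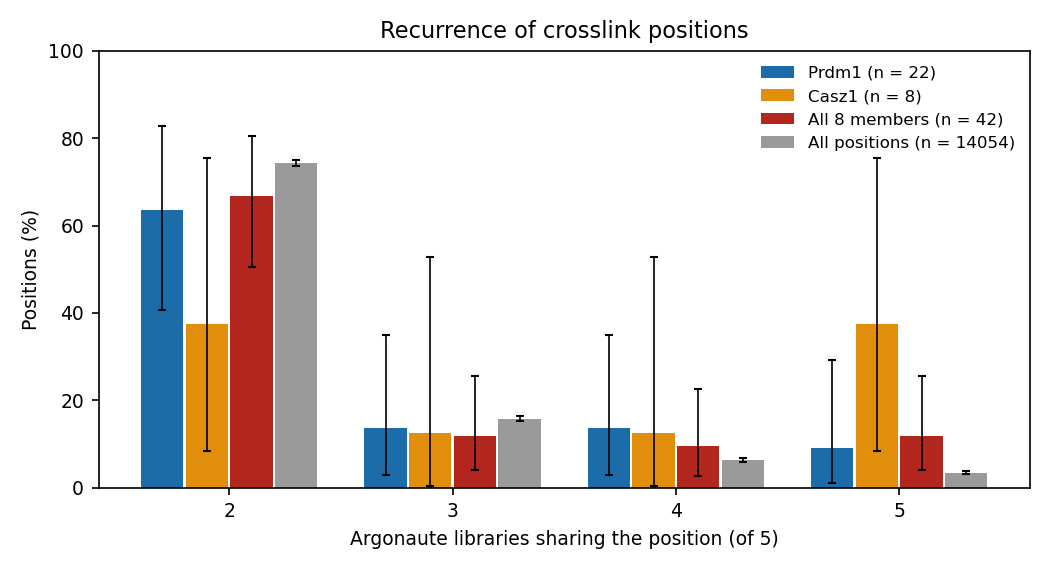
Share of positions (%) found in 2, 3, 4 or 5 of the 5 Argonaute libraries, for Prdm1, Casz1, all 8 genes and all positions in the table. Bars are shares and lines are exact 95% binomial intervals, and Casz1 had 37.5% of its 8 positions in 5 libraries against 3.47% of all positions.

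Prdm1 (ENSMUSG00000038151.13, chromosome 10, 44437177 to 44528501, minus strand) had 15 positions in its 3′ UTR, 6 in coding sequence and 1 in an intron. Only 14 of the 4940 genes with a position had more positions, and the median gene had 2. Its 3′ UTR is 2490 nt long, which gives 6.02 positions per kb. Among the 3245 genes with a 3′ UTR position the median was 0.743 per kb, and 98.6% of these genes had a lower value than Prdm1. All 8 Prdm1 positions in 3 or more libraries were in the 3′ UTR, and each of the 6 coding positions was in 2 libraries.

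Along the Prdm1 3′ UTR, 7 positions lay from nt 123 to nt 502, and 5 of these were in 3 or more libraries. The highest were nt 170 (44439497) and nt 502 (44439165), both in 5 libraries, and nt 302 (44439365), in 4 libraries. A further 5 positions lay from nt 1142 to nt 1365, of which only nt 1284 (44438383) was in more than 2 libraries, with 3. A position at nt 2128 (44437539) was in 2 libraries. The last ones, nt 2437 (44437230) and nt 2454 (44437213), were each in 4 libraries and lay 53 and 36 nt before the annotated end of the transcript. Recurrent positions were thus found near both ends of the UTR.

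**Figure D3:**
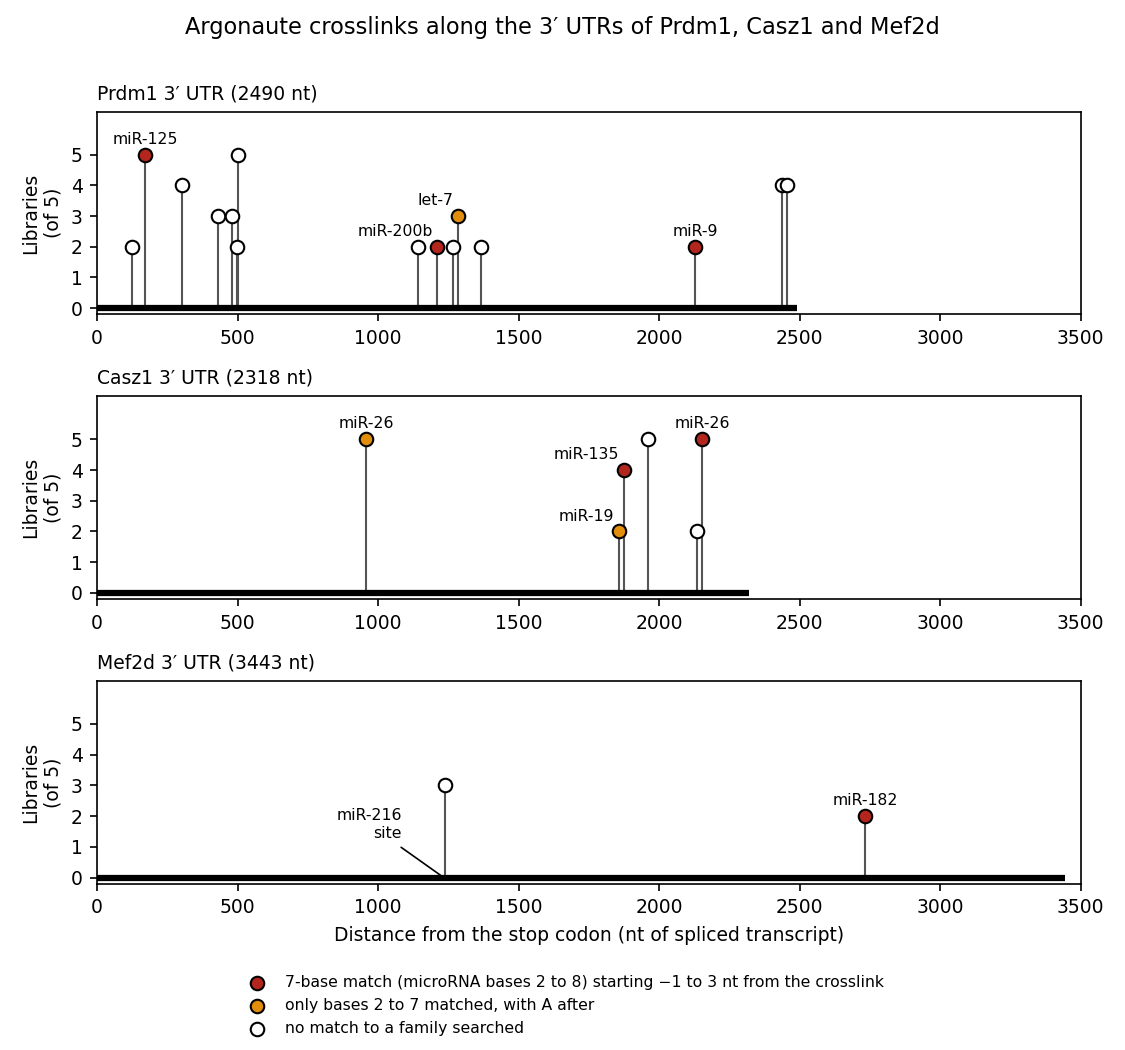
Crosslink positions along the 3′ UTRs of Prdm1, Casz1 and Mef2d by distance from the stop codon (nt, x axis) and number of Argonaute libraries (of 5, y axis). Red points had a 7-base match of a family searched just after the crosslink, orange points had only bases 2 to 7 matched with A after, and open points had neither; of the positions in 5 libraries, those at nt 170 in Prdm1 and nt 2152 in Casz1 are red.

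Seed matches were searched in 44 microRNA families. A 7-base match (7mer-m8) pairs with microRNA bases 2 to 8, an 8mer adds an A after it, and a 7mer-A1 pairs with bases 2 to 7 and has that A. A match counted as just after the crosslink when its 7-base frame began from 1 nt before to 3 nt after the crosslinked base. Such a match was present at 8 of the 36 exonic member positions (22.2%, 10.1 to 39.2), against 26.2% of 10944 exonic positions in the table. The member share was thus close to that of all positions. With 7mer-A1 matches counted as well, the share was 12 of 36 (33.3%, 18.6 to 51), against 34% of all exonic positions. Of the 8 matches, 5 began 1 nt after the crosslink, which was also the most frequent start in other genes, with 2010 matches. The families were miR-182 at 2 positions, and miR-9, miR-26, miR-96, miR-125, miR-135 and the miR-200b family at 1 each. At the 13 exonic member positions in 3 or more libraries, 3 had a match (23.1%, 5.04 to 53.8), against 39.1% of all such positions. miR-124 was not searched here.

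In Prdm1, 4 of 21 exonic positions had a 7-base match just after the crosslink. The position in 5 libraries at nt 170 was followed 1 nt later by CTCAGGG, the match of miR-125 (window chr10:44439480-44439509, minus strand). This match followed 0.365% of exonic crosslinks in the table. The position at nt 2128, in 2 libraries, had ACCAAAG, the match of the neural microRNA miR-9, starting 2 nt after the crosslink, as did 1.64% of exonic crosslinks for any start in the range. At nt 1209, in 2 libraries, a match of the miR-200b family, CAGTATT, began 3 nt after the crosslink, the last start counted. Of 10944 exonic positions, 2 had a match of that family just after the crosslink, this one included. So low a count does not set this match apart from a chance one, and this was not tested. A coding position in exon 6 of 8 (44441094, 2 libraries) had GTGCCAA, the match of miR-96, from the miR-183/96/182 cluster of sensory organs.

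Weaker Prdm1 matches involved let-7 and miR-9. At nt 1284, in 3 libraries, TACCTCA gave a 7mer-A1 of let-7. In coding sequence, the position at 44439716 (2 libraries) had a full let-7 match, CTACCTC, that ended at the base before the crosslink. Another coding position, 44442114 (2 libraries), had a 7mer-A1 of miR-9. A full miR-25/92 match began 10 nt before the coding position 44441094 (2 libraries). The let-7 match began 7 nt before its crosslink. In other genes 85 matches began 7 nt before a crosslink and 47 began 10 nt before, against 2010 that began 1 nt after. As background and not as a result of these data, human PRDM1 is known in lymphoid cells as a target of let-7, miR-9 and miR-125b. Positions at nt 502 in 5 libraries and at nt 302, nt 2437 and nt 2454 in 4 libraries had no 7-base match of a family searched within 20 nt on either side.

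Casz1 (ENSMUSG00000028977.16, chromosome 4, 148804429 to 148954889, plus strand) had 6 positions in its 3′ UTR and 2 in introns. Of the 8, 3 were in 5 libraries, at nt 958 (148953529), nt 1961 (148954532) and nt 2152 (148954723). Only 8 of the 4940 genes with a position had 3 or more in all 5 libraries. The position at nt 1874 (148954445) was in 4 libraries, and those at nt 1856 (148954427) and nt 2133 (148954704) were in 2. In the 2318 nt UTR of ENSMUST00000122222.7, 5 of the 6 positions lay from nt 1856 to nt 2152, and none before nt 958. The intronic positions, 148807735 in 3 libraries and 148837080 in 2, had no sequence test.

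Casz1 matches came from miR-26, a broadly expressed microRNA, miR-135 and miR-19. At nt 2152, in 5 libraries, the 8mer TACTTGAA of miR-26 began 1 nt after the crosslink (window chr4:148954711-148954740, plus strand). At nt 958, also in 5 libraries, ACTTGAA gave a 7mer-A1 of miR-26 in the same frame, so that 2 of the 3 positions in all libraries were followed by a match to its bases 2 to 7. The full miR-26 match, to bases 2 to 8, followed 2.01% of exonic crosslinks of any score in the table. No such share was computed for bases 2 to 7 of miR-26 or for positions in 5 libraries alone. A 7-base match of any family searched followed 46.7% of all exonic positions in 5 libraries. The position in 4 libraries at nt 1874 was followed 1 nt later by AAGCCAT, the match of miR-135, found after 0.219% of exonic crosslinks. At nt 1856, in 2 libraries, TTGCACA gave a 7mer-A1 of miR-19. The position at nt 1961, in 5 libraries, had no 7-base match of a family searched within 20 nt on either side.

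Per length of 3′ UTR, with all annotated 3′ UTRs of a gene merged, the order was Prdm1 with 6.02 positions per kb, Otx2 with 2.92, Casz1 with 1.6, Mef2d with 0.536 and Crx with 0.406. Nrl, Thrb and Rxrg had 0. Otx2 was above 92.9% and Casz1 above 79.6% of the 3245 genes, while Mef2d and Crx were below the median of 0.743. With 1 and 2 positions, Crx and Mef2d cannot be ordered. The order of Otx2 and Casz1 may depend on the annotation. Otx2 had 3 positions in a UTR of 1029 nt, and its RefSeq gene ends 896 nt further. All 6 Casz1 UTR positions lay in a UTR of 2318 nt, while its merged length was 3752 nt. No spread over libraries was available for any of these values.

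**Figure D4:**
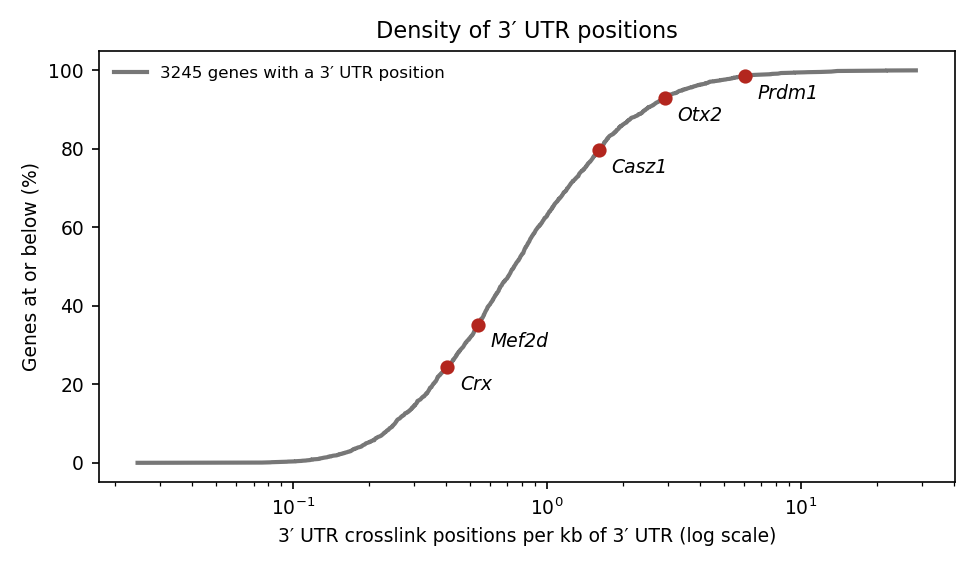
Cumulative share of genes (%) by number of 3′ UTR crosslink positions per kb of 3′ UTR (log scale), for the 3245 genes with at least 1, with 5 members marked as points. Prdm1, at 6.02 per kb, was above 98.6% of genes, and Nrl, Thrb and Rxrg, with 0, are not drawn.

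Mef2d (ENSMUSG00000001419.17, chromosome 3, 88142372 to 88172086, plus strand) held the only miR-216 site of the 8 genes. The miR-216 table lists 394 distinct sites in 339 genes, and 2.98% of all crosslink positions lay within 20 nt of one, against 1 of the 42 member positions. The site, at 88169872 to 88169877, lay in exon 11 of 11 of ENSMUST00000001455.12, in the 3′ UTR, and carried the names of miR-216a and miR-216b. Its crosslink, nt 1239 of the 3443 nt UTR (88169882), was in 3 libraries and came 5 nt after the end of the listed interval, so the match lay before the crosslink. With the base before it the interval read TGAGATT, a full 7mer-m8 of miR-216a with no A after it, while miR-216b was matched only over the shared 6 bases. No family searched had a match just after that crosslink. The Mef2d 3′ UTR held 3 matches of miR-216a, at nt 1228, nt 1293 and nt 3114, and no crosslink lay just before any of them. The other Mef2d position, nt 2732 (88171375, 2 libraries), had the 8mer TTGCCAAA of miR-182 starting 1 nt after the crosslink, which was also a 7mer-A1 of miR-96.

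Otx2 (ENSMUSG00000021848.16, chromosome 14, 48657677 to 48673819, minus strand) had 3 positions in its 3′ UTR, 2 in coding sequence and 1 in an intron. The coding position in exon 5 of 6 (48661378) was itself the first base of TTGCCAA, the 7-base match of miR-182, which followed 1.78% of exonic crosslinks. None of the 3′ UTR positions, nt 583 (48658123), nt 605 (48658101) and nt 652 (48658054), had a 7-base match just after it. An 8mer of miR-219 began 11 nt before nt 583, and a 7-base match of miR-27 began 15 nt before nt 652. Crx (ENSMUSG00000041578.15, chromosome 7, minus strand) had 1 position in its 3′ UTR, nt 701 (15867079), and 1 in an intron (15874068). Thrb (ENSMUSG00000021779.17, chromosome 14, plus strand) had 1 in coding sequence, in exon 7 of 7 (18033481), and 1 in an intron (17856549). No family searched had a 7-base match within 20 nt of the exonic positions of Crx and Thrb.

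The 3′ UTRs were also searched whole, to see how many matches had a crosslink just before them. The 3′ UTRs of the 8 genes, 1 transcript each, held 88 matches of 7 bases, of which 6 had one (6.82%, 2.54 to 14.3). In other genes with a 3′ UTR position the share was 6.03% (2339 of 38810). In the 5 members with a 3′ UTR position it was 6 of 54 (11.1%, 4.19 to 22.6). Prdm1 had 3 of 18, Casz1 had 2 of 11 and Mef2d had 1 of 17, while Crx had 0 of 5 and Otx2 had 0 of 3. Thrb held the most, 28 matches of 20 families in 4424 nt, among them 10 8mers, and had no crosslink in its 3′ UTR. Nrl had 5 matches in 1577 nt and Rxrg had 1 in 350 nt. The families with the most matches over the 8 genes were miR-125 with 6, of which 1 had a crosslink, and miR-9, miR-27, miR-128, miR-135 and miR-219 with 4 each.

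Other genes of the same network were counted from lists, which were also chosen with earlier results of these data known. The counts are to be read beside the 21.6% of all protein-coding genes that had a position. Of 22 further fate genes, 12 had a position, and the 5 with the most were Rorb with 105, Neurod1 with 24, Sox4 with 12, Sox11 with 10 and Insm1 with 9. In these 22 genes 96 of 189 positions lay in 3′ UTRs and 51 were in 3 or more libraries. Over all positions in the table, 52.1% lay in 3′ UTRs and 25.6% were in 3 or more libraries. Most of the 189 came from Rorb, whose 105 included 26 in 3′ UTRs and 20 in 3 or more libraries. Of 17 photoreceptor products, 2 had a position, Rbp3, the interphotoreceptor retinoid-binding protein, with 4 and Gnb3, a transducin subunit of cones, with 2. Among 20 paralogs of the members, 6 had 14 positions in all. Mef2a had 7, Maf and Prdm8 had 2 each, and Mafg, Prdm2 and Thra, the last tied and outside the 5 named by rule, had 1 each. Of marker genes, 9 of 10 for retina had a position, and the counts for other ocular cell types were 0 of 6 for pigment epithelium, 0 of 5 for microglia, 0 of 3 for lens, 1 of 5 for vessels and 1 of 3 for astrocytes. Beside the share of 21.6% over all genes, the lists of other cell types are too short for these counts to show that such cells were absent.

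The genes most like Prdm1 were sought by the number of positions in each of 24 combinations of class and score. The smallest sum of differences was 8, shared by 4 of the 4940 genes, and in order of symbol the first of these were Grb10 with 14 positions, Neurod1 with 24 and Taok1 with 14. For Casz1, 16 genes were tied at the third place, and for Mef2d 88 genes had the same pattern, so none is named.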

How the data were processed

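The submitters' processing notes list mm10 as the build and, as tools, bedtools, STAR and CASAVA 1.8.2; further steps were not given in the sources. Per the file headers, the authors' score of a crosslink counts the samples containing it. The miR-216 table has no header; each of its 404 deposited scores equalled that of a crosslink at most 15 nt from where the match starts. Positions were assigned on the same strand with GENCODE M21, in the order 3′ UTR, coding sequence (stop codon included), 5′ UTR, noncoding exon (transcripts subject to nonsense-mediated decay included), intron and intergenic. Sequence came from spliced transcripts, so introns had none; all 10989 exonic positions with a transcript base lay on T, and 10944 had a full window of 20 nt on either side. One microRNA of RefSeq (GRCm38.p6) stood for each of 44 families; letters were matched on the transcript strand only. Shares have exact 95% binomial intervals (scipy 1.17.1). The tables pool the Argonaute libraries, so no test was run. The match search was tested on simulated data. All members are named; of the lists, up to 5 genes with the most positions. Members, lists and alternatives were chosen with earlier results of these data known.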

Additional observations from a re-analysis of the deposited data

How the results depend on the processing

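Limiting the data to positions in 3 or more libraries left 14 of the 42 member positions. It left 5 members with no position, namely Crx, Otx2, Nrl, Thrb and Rxrg. The 3′ UTR share of the members was then 92.9% (13 of 14) against 64.3%. Over all positions, 3′ UTRs held 7327 of 14054 (52.1%), and 2409 of the 3598 in 3 or more libraries. A higher share under this limit is therefore not particular to the members. Of the 13 member positions, Prdm1 held 8 and Casz1 held 4. With 8mers only, the share with a match just after the crosslink was 5.56% (2 of 36), against 14.6% of all exonic positions. The other alternatives kept each share within the interval of its main value and each count close to its main value. Among them, the match share was 19.4% with starts from 0 to 2 nt or with core families only, and 33.3% within 20 nt or with 6-base matches, against 23.2%, 23.6%, 38% and 39.8% of all exonic positions. The share in 3 or more libraries was 26.5% without Casz1 and 30% without Prdm1, both alternatives having been added later, with the data in view. No paired analysis was possible because neither table gives values of single libraries, which is also why leaving out each library in turn was not run. With 42 positions, most of them in 1 gene, the intervals are wide.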

Other observations

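Beyond the annotated end of Otx2 in GENCODE, the same strand held 3 further positions in 2 libraries each, at 48656819, 48656735 and 48655862 on chromosome 14, which lie 858, 942 and 1815 nt past it. The RefSeq gene on the same build ends 896 nt further, at 48656781, so it includes the nearest of these, and the next lies 46 nt past its end. They were classed as intergenic and are not among the 42 member positions. No other member had such a position within 5000 nt of its end.

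Neighbouring positions of the members were often about 20 nt apart on the transcript. Of 9 pairs within 40 nt, 7 were 16 to 25 nt apart and 1, nt 498 and nt 502 of Prdm1, was closer than 16 nt. In other genes 627 of 1341 pairs were 16 to 25 nt apart and 118 were closer than 16 nt. In Casz1 the pairs were nt 1856 with nt 1874, in 2 and 4 libraries, and nt 2133 with nt 2152, in 2 and 5 libraries. In both, the position in more libraries was the one followed by a match to bases 2 to 8, of miR-135 and of miR-26, while nt 1856 had the weaker match of miR-19 and nt 2133 had none. Over all exonic positions in the table, such a match followed 20.7% of those in 2 libraries and 35.7% of those in 3. It followed 42.8% of those in 4 libraries and 46.7% of those in 5, so this is not particular to Casz1. In Prdm1, nt 1265 and nt 1284 were in 2 and 3 libraries, and the let-7 7mer-A1 followed nt 1284. The other Prdm1 pairs at this spacing, nt 479 with nt 498, nt 479 with nt 502 and nt 2437 with nt 2454, and the Otx2 pair nt 583 with nt 605 had no match just after either position. They were in 3 and 2, 3 and 5, 4 and 4, and 2 and 2 libraries. Having no match, these pairs cannot show whether the position in more libraries is the one that carries it. The pairs of nt 479 share that position and are not independent. This spacing was noticed in the data and was not tested.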
